A study of Capra hircus with 29 samples.

Results

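The genes that the oocyte uses to build its coat and to receive the sperm were followed through the oocyte samples, 7 of the 21343 genes in the expression table, each taken by its symbol and each held by 1 row. They were the zona pellucida glycoprotein genes ZP2 (ENSCHIG00000010960), ZP3 (ENSCHIG00000021820) and ZP4 (ENSCHIG00000026306), the ovastacin gene ASTL (ENSCHIG00000025036), the JUNO gene IZUMO1R (ENSCHIG00000027008), and the tetraspanin genes CD81 (ENSCHIG00000009589) and CD9 (ENSCHIG00000008887). ZP1 was not analysed here. RNA came from oocytes of Ji'ning grey goats, a Chinese breed with large litters, of high or of low fertility, for which the labels name no treatment. The deposited series text sets the first at more than 3 kids per birth and the second at fewer than 2, whereas the methods count litters of 3 as high and litters of 2 as low. Oocytes of the high fertility population came from large (HLO, n = 5), medium (HMO, n = 5) and small follicles (HSO, n = 4, replicates 1, 3, 4 and 5), and those of the low fertility population from large (LLO, n = 5), medium (LMO, n = 5) and small follicles (LSO, n = 5), 29 samples in all. The goats' age is not given in the sources used here. Each sample held a few oocytes drawn from a pool made over the goats of a population (the study's methods state the pooling for the high fertility goats), so the goats behind a sample are not known, and the spread between samples may be in part technical.

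The zona pellucida is the glycoprotein coat that the growing oocyte secretes around itself. Sperm bind to it, and after fertilization the oocyte empties its cortical granules, whose protease ovastacin cuts ZP2 so that further sperm no longer bind. Beneath the coat, JUNO on the egg membrane is the receptor for IZUMO1 of the sperm, and the tetraspanins CD9 and CD81 organise the membrane at which the gametes fuse. Growing oocytes transcribe the zona genes strongly, under the oocyte transcription factor FIGLA.

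Values were FPKM, fragments scaled for transcript length and library size, which can be compared between genes, but hold no counts, so no counting interval can be given. They summed to between 347806 and 490048 per sample, and to 222697 in LMO replicate 2. LMO replicate 2 and LLO replicates 2 and 5 had the lowest median Spearman correlations with the other samples, at 0.756 to 0.774, against 0.788 to 0.904 for the rest. They are called the libraries that stood apart, a cut made after seeing the data. No clear gap set them off, since LSO replicate 1 was next at 0.788 and LLO replicate 4 had 0.804. The 12 oocyte markers summed to 1168 to 4479 FPKM per sample, with the highest means for BTG4, at 1171 FPKM, and KPNA7, at 509. Above 0.5 FPKM in all 29 samples were 9 of the 12, GDF9 and BMP15 among them. FIGLA was above it in 28 samples, NLRP5 in 5 and OOSP2 in 0. The 11 granulosa cell markers with a row summed to 3.83 to 26.7 FPKM, with FSHR, LHCGR and CYP19A1 at no more than 0.283 FPKM and AMH listed at 0 in every sample. Most of that sum was SERPINE2, a secreted protease inhibitor, at 9.05 ± 4.18 FPKM (SD, n = 29), while INHBA reached 5.21 and GJA1 4.23 FPKM. The theca markers summed to 4.38 to 39.2 FPKM, mostly STAR, the endothelium and stroma markers to 5.55 to 43.5 FPKM, mostly DCN and ACTA2, and the 8 leukocyte markers to 0.701 to 5.88 FPKM, mostly LAPTM5.

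The 3 zona genes stood far above the other members. ZP3, whose product carries the sugars and protein surface long linked to sperm binding, had 1406 ± 1130.2 FPKM (SD, n = 29) and a rank among all genes of a sample between 3 and 564, with a median of 65. It was among the 20 highest genes in 7 samples and among the 100 highest in 17. ZP4 had 424 ± 349 FPKM (SD, n = 29), and ZP2, the target of ovastacin, 245 ± 122 FPKM (SD, n = 29). Together the 3 zona genes held between 0.0628 and 1.76% of a sample's FPKM sum, with a median of 0.402%. Within single samples, ZP3 exceeded ZP4 in 28 of 29, ZP3 exceeded ZP2 in 28 of 29, and ZP4 exceeded ZP2 in 22 of 29. The exceptions for ZP3 were LLO replicate 5, with less ZP3 than ZP4, and LLO replicate 2, with less ZP3 than ZP2. Since a sample held a few oocytes, fewer oocytes with a transcript and less of it in each cannot be told apart.

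**Figure D1:**
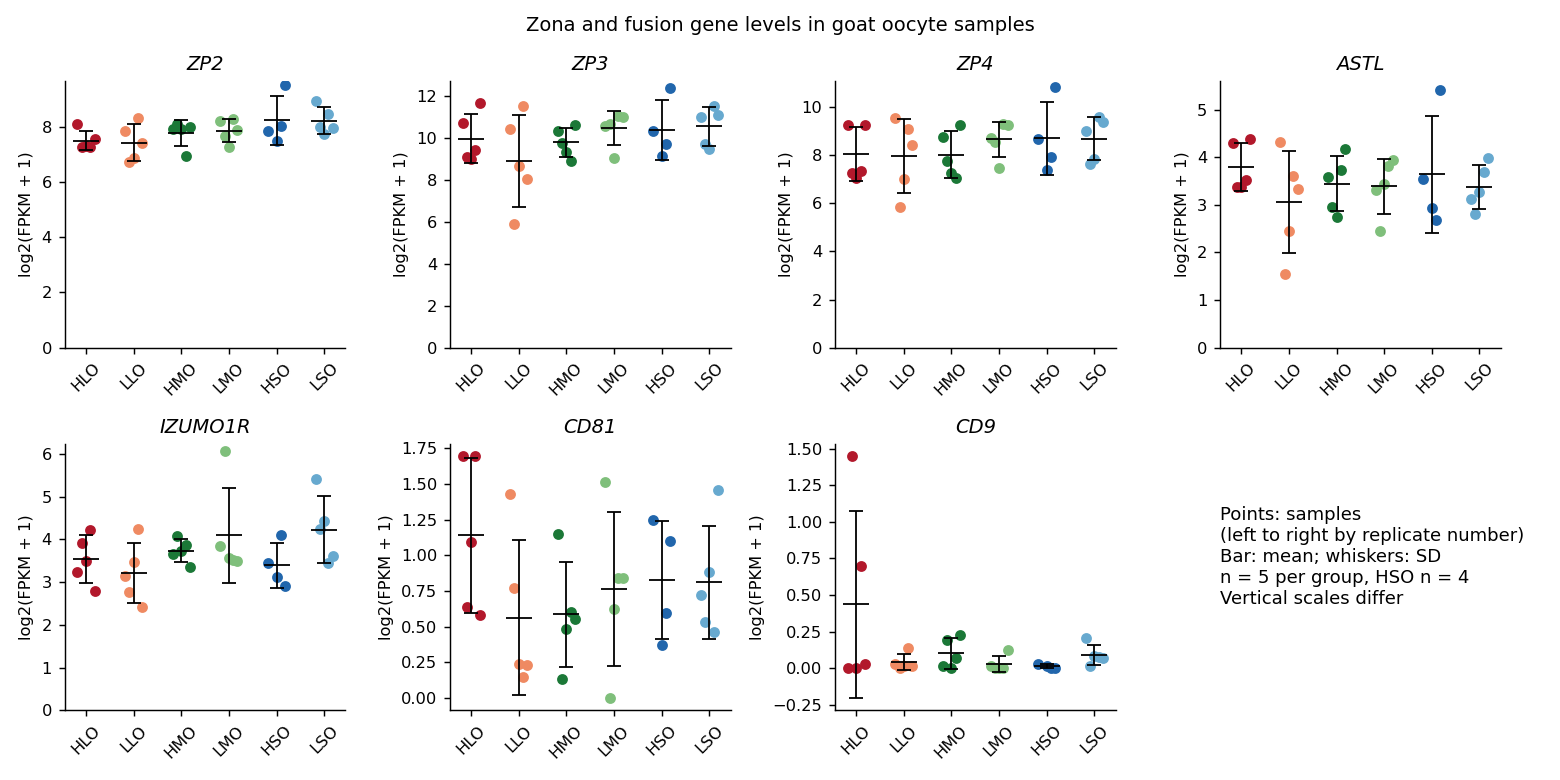
Level of each of the 7 genes on the scale log2(FPKM + 1), by group on the horizontal axis; points are samples in the order of their replicate number, bars the mean and whiskers the SD (n = 5, HSO n = 4), and the vertical scales differ. Groups overlap for every gene, HSO replicate 5 is highest for ZP2, ZP3, ZP4 and ASTL, and CD9 is near 0 outside 2 HLO samples.

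Within each group, ZP3 spanned a wider range than the 6 group means did. In HLO, its FPKM in replicates 1 to 5 were 1639.7, 533, 508, 679 and 3179, and in LLO 1369, 57.5, 404, 2945 and 265. LLO thus held both the lowest ZP3 of the series, in replicate 2, and 1 of the highest, in replicate 4. In HMO the values were 1296, 863, 645, 468 and 1543, and in LMO 1524, 1624, 521, 2085 and 2026. LMO replicates 2, 4 and 5 lay above every HMO sample, and LMO replicate 3 below 4 of them. In replicates 1, 3, 4 and 5 of HSO they were 1274, 551, 825 and 5318, and in LSO 2009, 819, 697, 2917 and 2195. HSO replicate 5 had the highest ZP3 of all samples.

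ZP4 was lower and spread in a like way. In HLO its FPKM were 611, 154, 134, 160.5 and 616, and in LLO 752, 56.4, 127, 542 and 340.3. In HMO they were 438, 219, 151, 131 and 622, and in LMO 417, 377, 176, 624 and 621. HLO replicates 1 and 5 stood well above the other 3, as they did for ZP3. In HSO the values were 414, 165, 240.4 and 1835, and in LSO 511, 199.8, 228, 776 and 665. ZP2 had the narrowest spread of the 7 genes, with an SD of 49.99% of its mean against 80.4% for ZP3 and 82.2% for ZP4. Its FPKM were 270.4, 152, 155, 153 and 185 in HLO, 228, 105, 114, 315 and 168 in LLO and 238, 272, 239, 122 and 253 in HMO. They were 294, 199.7, 153, 307 and 233 in LMO, 228, 179, 261 and 726 in HSO and 490.1, 249, 212, 348 and 245 in LSO. The 2 highest ZP2 samples, HSO replicate 5 and LSO replicate 1, were both from small follicles.

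The proportion of ZP4 to ZP3 was narrow, while both genes ranged widely. The log2 ratio of (FPKM + 1) of ZP4 to ZP3 within a sample averaged -1.65 ± 0.59 (SD, n = 29). LLO replicate 5 had 0.36 and LLO replicate 2 had -0.026, both of them libraries that stood apart, and the other 27 samples averaged -1.78 ± 0.32 and ranged from -2.44 to -0.86. The third library that stood apart, LMO replicate 2, had -2.11. The log2 ratio of ZP2 to ZP3 was wider, at -2.18 ± 0.92 (SD, n = 29) and -2.35 ± 0.66 without the same 2 LLO samples. The third ratio, CD81 to CD9, averaged 0.66 ± 0.54, with CD9 mostly near 0. The populations were then compared within each stage by exact two-sided permutation tests, 9 tests in all, whose smallest possible p was 0.00794. None had an adjusted p under 0.05. For ZP4 to ZP3 the difference in mean log2 ratio was -0.99 (p = 0.119, adjusted p = 0.381) between HLO and LLO in the exact test, 0.043 (p = 0.778, adjusted p = 0.778) between HMO and LMO, and 0.18 (p = 0.127, adjusted p = 0.381) between HSO and LSO. For ZP2 to ZP3 it was -0.98 (p = 0.317, adjusted p = 0.714) in large, 0.59 (p = 0.119, adjusted p = 0.381) in medium and 0.18 (p = 0.683, adjusted p = 0.778) in small follicles by the same exact test. For CD81 to CD9 the exact permutation p ran from 0.444 to 0.730 over the 3 stages.

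**Figure D2:**
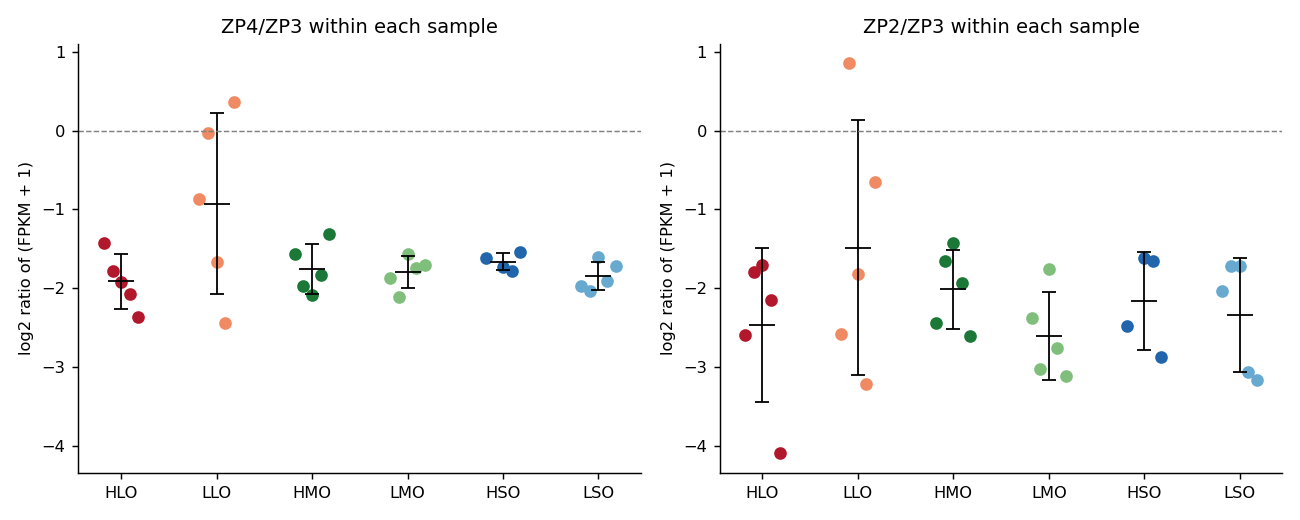
Log2 ratio of (FPKM + 1) of ZP4 to ZP3 and of ZP2 to ZP3 within each sample, by group; points are samples, bars the mean, whiskers the SD, and the dashed line equal levels. For ZP4 to ZP3 all samples but LLO replicates 2 and 5 lie between -2.44 and -0.86.

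ASTL, which encodes the cortical granule protease, was expressed in every sample, at 11.4 ± 7.35 FPKM (SD, n = 29), far under the zona genes. Its lowest, median and highest FPKM were 9.32, 10.5 and 19.9 in HLO and 1.94, 9.13 and 19.1 in LLO. They were 5.72, 11.01 and 16.9 in HMO and 4.50, 9.87 and 14.3 in LMO. In HSO they were 5.45, 8.60 and 41.5, and in LSO 6.01, 8.66 and 14.8. HSO replicate 5 was highest and LLO replicate 2 lowest, and both samples held the same extremes for ZP2, ZP3 and ZP4.

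IZUMO1R, whose product is a folate receptor relative that no longer binds folate and is held on the egg membrane by a lipid anchor, had 14.4 ± 12.01 FPKM (SD, n = 29) and exceeded 0.5 FPKM in each of the 29 samples. Its FPKM were 8.44, 14.2, 10.3, 17.5 and 5.89 in HLO and 7.87, 5.85, 10.1, 17.98 and 4.35 in LLO. They were 11.6, 15.97, 12.3, 13.5 and 9.16 in HMO and 13.5, 65.4, 10.8, 10.3 and 10.2 in LMO. LMO replicate 2 held the highest value of the series, and the other 4 LMO samples lay within the range of HMO. In HSO they were 9.94, 7.61, 16.1 and 6.45 and in LSO 41.8, 17.9, 20.4, 9.91 and 11.2. LSO replicate 1 was the second highest sample and lay well above the other LSO samples. IZUMO1R exceeded ASTL in 18 of 29 samples, and ZP2 exceeded IZUMO1R in 29 of 29.

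The tetraspanins were low. CD81 had 0.815 ± 0.636 FPKM (SD, n = 29), was above 0.5 FPKM in 18 of 29 samples and was listed at 0 in LMO replicate 2. Its lowest, median and highest FPKM were 0.497, 1.13 and 2.24 in HLO, 0.109, 0.180 and 1.70 in LLO and 0.0970, 0.470 and 1.22 in HMO. They were 0, 0.794 and 1.86 in LMO, 0.295, 0.827 and 1.38 in HSO and 0.377, 0.651 and 1.74 in LSO. CD9, the tetraspanin that mouse eggs need to fuse with sperm, was listed at 0 in 9 samples and exceeded 0.5 FPKM in 2, HLO replicate 2 with 1.74 and HLO replicate 4 with 0.622. In the other 27 samples it was at most 0.171 FPKM, and its median over all 29 was 0.0108. An exact 0 in these files need not mean that no transcript was present. CD81 exceeded CD9 in 26 of 29 samples.

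Ordered by group mean, ZP2, ZP3 and ZP4 were highest in HSO, then in LSO and LMO, with 1992 FPKM of ZP3 in HSO and 963 in HMO, its lowest group. ASTL was also highest in HSO and lowest in LLO, IZUMO1R highest in LMO and lowest in LLO, and CD81 highest in HLO and lowest in HMO. The places of HSO and of LMO rested on 1 library each. Without HSO replicate 5 the HSO means were 884 FPKM for ZP3, 273 for ZP4 and 7.55 for ASTL, each the lowest of the 6 groups, and 223 for ZP2. Without LMO replicate 2 the LMO mean of IZUMO1R was 11.2 FPKM, and LSO was highest. For each of the 7 genes, the ranges of all 5 pairs of neighbouring groups in this order overlapped, and so did those of the highest and the lowest group. The order of the groups changed for 5 of the 7 genes (not CD81 and CD9) when the samples were scaled by median-of-ratios factors, whereas the order of the genes by mean level, ZP3, ZP4, ZP2, IZUMO1R, ASTL, CD81 and CD9, was the same for all 7.

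Whether the high and the low fertility population differed was asked within each follicle stage, with the moderated test of limma on log2(FPKM + 1) over all genes that exceeded 0.5 FPKM in 4 or more of the compared samples and with Benjamini-Hochberg adjusted p. CD9 did not pass this filter in any comparison, so 6 of the 7 genes were tested. In large follicles, HLO minus LLO was 1.05 (95% interval -0.96 to 3.06, adjusted p = 0.828) for ZP3. The difference was 0.73 (95% interval -0.41 to 1.88, adjusted p = 0.828) for ASTL, 0.58 (95% interval -0.11 to 1.27, adjusted p = 0.828) for CD81 and 0.32 (95% interval -0.67 to 1.30, adjusted p = 0.866) for IZUMO1R. For CD81 the difference was 1.36 with a pseudocount of 0.1 (adjusted p = 0.806 by limma). ZP2 and ZP4 differed by 0.066 and 0.063. None of the 6 was called: 0 had an adjusted p under 0.05, as did 0% of the 8328 genes tested, 0 had an unadjusted p under 0.05, against 4.14% of all genes, and 0 had groups that did not overlap, against 0.432%. Their median difference was 0.45, and that of all genes tested -0.091. The sign of 4 of the 6 differences rested on the 2 LLO libraries that stood apart. Without them ZP3 differed by -0.25, ZP4 by -0.50, ZP2 by -0.17 and IZUMO1R by -0.092, and without LLO replicate 2 alone ZP3 differed by 0.29 and ZP4 by -0.47.

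In medium follicles, HMO minus LMO was -0.68 (95% interval -1.64 to 0.29, adjusted p = 0.661) for ZP3 and -0.63 (95% interval -1.72 to 0.45, adjusted p = 0.714) for ZP4. It was -0.35 (95% interval -1.39 to 0.68, adjusted p = 0.839) for IZUMO1R, which became 0.14 without LMO replicate 2. CD81 differed by -0.18 (-0.37 without LMO replicate 2), ASTL by 0.048 (-0.19 without LMO replicate 2), and ZP2 by -0.085 (0.019 after scaling by median-of-ratios factors). Again 0 of 6 genes had an adjusted p under 0.05, against 0.0715% of the 8390 tested, 0 had an unadjusted p under 0.05, against 8.67%, and 0 had groups that did not overlap, against 1.7%. Their median difference was -0.27, beside -0.065 for all genes. ZP3 and ZP4 were called by 1 alternative fit. With limma's array weights, which give less weight to libraries far from their group, HMO minus LMO was -1.34 for ZP3 (adjusted p = 0.0318) and -1.41 for ZP4 (adjusted p = 0.0425), in a fit that called 1011 of all genes where the unweighted fit called 6. Without LMO replicate 3, ZP3 differed by -1.03 at an unadjusted p of 0.016 and an adjusted p of 0.368 by limma.

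In small follicles, the largest difference of the 6 was that of IZUMO1R, with HSO minus LSO at -0.84 (95% interval -1.83 to 0.15, adjusted p = 0.88). It was 0.27 (95% interval -0.91 to 1.45, adjusted p = 0.942) for ASTL and -0.17 (95% interval -1.60 to 1.27, adjusted p = 0.966) for ZP3, and 0.013 for ZP2, 0.014 for ZP4 and 0.018 for CD81. Of the 6 genes, 0 had an adjusted p under 0.05, against 0.0119% of the 8376 tested, 0 an unadjusted p under 0.05, against 4.41%, and 0 had groups that did not overlap, against 2.05%. The median difference was 0.014 over the 6 and -0.0061 over all genes. The HSO means of the zona genes rested on replicate 5, and without it HSO minus LSO was -0.84 for ZP3, -0.70 for ZP4, -0.42 for ZP2 and -0.32 for ASTL, none with an unadjusted p under 0.05 in limma. Without LSO replicate 4, the difference of IZUMO1R was -1.03 with an unadjusted p of 0.0476 and an adjusted p of 0.774. CD9, untested in limma, was at most 0.0207 FPKM in HSO and between 0.0108 and 0.153 FPKM in LSO, an exact two-sided permutation p of 0.0317, not adjusted, at levels far below the filter in all 9 samples. For the other 6 genes the exact permutation p was no lower than 0.111 at any stage.

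**Figure D3:**
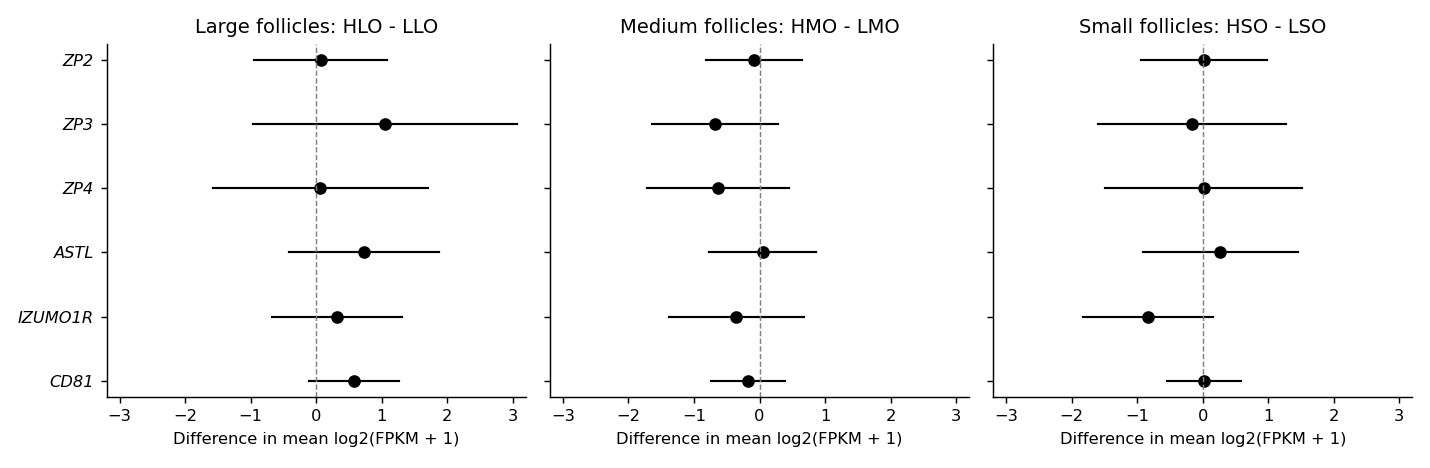
Difference in mean log2(FPKM + 1) between the high and the low fertility group at each stage for the 6 genes tested; points are the estimates and lines the 95% intervals of limma's moderated test, with 0 as the dashed line. All 18 intervals hold 0.

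Over all 29 samples, with the stage as a covariate, the high minus the low fertility population was 0.35 (95% interval -0.22 to 0.92, adjusted p = 0.677) for ASTL by limma and -0.27 (95% interval -0.82 to 0.28, adjusted p = 0.773) for IZUMO1R. It was -0.19 for ZP4, 0.14 for CD81, 0.077 for ZP3 and -0.0027 for ZP2 (0.10 after scaling by median-of-ratios factors). Without the 3 libraries that stood apart, the difference was -0.35 for ZP3 and -0.38 for ZP4. With array weights it was -0.95 for ZP4 (unadjusted p = 0.00474, adjusted p = 0.055 by limma), and with a pseudocount of 0.1 it was 0.40 for CD81. No gene of the 6 had an adjusted p under 0.05, against 0.0103% of the 9692 genes tested, or an unadjusted p under 0.05, against 9.99%, and none met that p with a log2 difference beyond 1, against 0.526%. Of the markers of somatic cells, STAR and LAPTM5 differed between the populations in single comparisons at an unadjusted p, and their part in the values above was not tested. STAR, a cholesterol carrier of steroid-producing cells and the only theca marker of 3 with a row to pass the filter, was at 17.6 to 30.01 FPKM in HLO and 5.11 to 17.3 in LLO, but at 8.54 to 15.6 in HMO and 19.8 to 39.01 in LMO. HLO minus LLO was 0.96 for STAR (unadjusted p = 0.0429, adjusted p = 0.828) and HMO minus LMO -1.04 (unadjusted p = 0.00509, adjusted p = 0.265) by limma. The other theca markers with a row were low, with CYP11A1 at no more than 0.517 FPKM and INSL3 listed at 0 in every sample. Among the leukocyte markers, LAPTM5, a lysosomal membrane protein gene, was at 0.563 to 3.3 FPKM in HMO and 2.25 to 5.72 in LMO, and HMO minus LMO was -1.0003 (unadjusted p = 0.00864, adjusted p = 0.339 by limma). The sum of the list was 0.881 to 3.51 FPKM in HMO and 2.74 to 5.88 in LMO, with PTPRC at no more than 0.0538 and CD14, TYROBP and FCER1G listed at 0 in every sample.

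The stages were compared by the moderated F-test of limma with the population as a covariate. ZP2 was the only gene of the 6 with an unadjusted p under 0.05, against 1.66% of the 9692 genes tested, and 0 had an adjusted p under 0.05, against 0%. It had 184 ± 67.4 FPKM (SD, n = 10) in large, 231 ± 58.6 FPKM (SD, n = 10) in medium and 326 ± 176 FPKM (SD, n = 9) in small follicles. Relative to large follicles, ZP2 was 0.36 higher on the log2 scale in medium and 0.76 higher in small ones, with an F of 3.96, an unadjusted p of 0.0299 and an adjusted p of 1 by limma. The ranges overlapped, at 105 to 315 FPKM in large and 179 to 726 in small follicles. The unadjusted p was 0.0835 without HSO replicate 5 and 0.0741 without the 3 libraries that stood apart. ZP3 had 1158 ± 1114 FPKM (SD, n = 10) in large, 1259 ± 602 FPKM (SD, n = 10) in medium and 1845 ± 1532 FPKM (SD, n = 9) in small follicles, with an unadjusted p of 0.189 from limma's F-test. For IZUMO1R the unadjusted p was 0.217, for ZP4 0.4, for CD81 0.669 and for ASTL 0.954. In a model of the 6 group means, 0 of the 6 genes had an unadjusted p under 0.05 for the interaction of stage and population, against 7.89% of all genes, and 0 an adjusted p, against 0%. The smallest unadjusted p was 0.185, of CD81.

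How the genes varied together from sample to sample was examined next. Over all 29 samples, 6 of the 21 pairs among the 7 genes had an adjusted p under 0.05 for Pearson's r and 5 for Spearman's rho in the permutation test. The samples were also split into 2 clusters by k-means, with 2 centres on 5 principal components of the other genes, the 7 left out. The number of clusters was a setting of the method, not a result. Correlations were then taken within the clusters of 14 (A) and 15 samples (B). Cluster A held 11 of the 12 samples numbered 1 or 5, and cluster B all 11 numbered 2 or 3. The number 4 was split, 3 and 3. By group, cluster A held 2 samples of HLO, 3 of LLO, 2 of HMO, 3 of LMO, 2 of HSO and 2 of LSO. In cluster B the 3 zona genes varied together, and 1e-05 is the smallest p that 100000 resamples can give. For ZP3 and ZP4 r was 0.94 and rho 0.93 (n = 15, permutation p = 1e-05 and 1e-05, adjusted p = 0.00021 and 0.00021), for ZP2 and ZP4 r was 0.83 and rho 0.81 (n = 15, permutation p = 0.00023 and 0.00043, adjusted p = 0.00161 and 0.00226), and for ZP2 and ZP3 r was 0.75 and rho 0.88 (n = 15, permutation p = 0.00272 and 4e-05, adjusted p = 0.0114 and 0.00042). IZUMO1R also varied with ZP4 and ZP3 in these samples. For IZUMO1R and ZP4 r was 0.87 and rho 0.80 (n = 15, permutation p = 7e-05 and 0.00058, adjusted p = 0.000735 and 0.00244), and for IZUMO1R and ZP3 r was 0.80 and rho 0.85 (n = 15, permutation p = 0.00067 and 0.00016, adjusted p = 0.00352 and 0.00112). These 5 pairs were all that passed among the 21 in cluster B. The share of all gene pairs that would pass was not computed, over all samples or within a cluster. These counts thus do not set the members apart from other genes. Without the 2 samples farthest from the median of the first gene, r was 0.94 for ZP3 and ZP4, 0.63 for ZP2 and ZP4, 0.67 for ZP2 and ZP3, 0.83 for ZP4 and IZUMO1R and 0.88 for ZP3 and IZUMO1R. Without LLO replicate 2 and LMO replicate 2, which stood apart, 13 samples remained and r was 0.95, 0.91, 0.95, 0.85 and 0.88, in the same order of pairs, and ZP2 and IZUMO1R passed by r, at 0.74 (adjusted p = 0.0207 in the permutation test), but not by rho, at 0.54 (adjusted p = 0.187 in the permutation test), and r was 0.37 without the 2 farthest samples. For the 5 pairs above, r in these 13 samples without the 2 farthest was 0.83, 0.77, 0.89, 0.59 and 0.64, in the same order. After scaling by median-of-ratios factors, the same 5 pairs passed in cluster B by r and by rho, and r of ZP2 and ZP4 was 0.70.

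In cluster A, 1 of the 21 pairs passed by r and 0 by rho; whether the clusters differ in any r was not tested. For ZP4 and ASTL r was 0.89 and rho 0.71 (n = 14, permutation p = 0.00017 and 0.00544, adjusted p = 0.00357 and 0.114), and r was 0.67 without the 2 samples farthest from the median of ZP4. For ZP3 and ZP4 r was 0.74 and rho 0.63 (n = 14, permutation p = 0.0124 and 0.0192, adjusted p = 0.0871 and 0.184), and r was 0.47 without the 2 farthest samples. For IZUMO1R and ZP4, r was -0.16 and rho -0.18 (n = 14, permutation p = 0.559 and 0.533, adjusted p = 0.84 and 0.976), and for IZUMO1R and ASTL r was -0.39 and rho -0.51 (n = 14, permutation p = 0.166 and 0.0648, adjusted p = 0.435 and 0.272). Without LLO replicate 5, which stood apart, r of IZUMO1R and ASTL was -0.77 and rho -0.82 (n = 13, permutation p = 0.00268 and 0.00098, adjusted p = 0.0281 and 0.0206), so that samples with more ASTL held less IZUMO1R. In these 13 samples 3 pairs passed by r and 1 by rho, the third pair by r being ZP3 and ZP4, with r at 0.75 (adjusted p = 0.0323 in the permutation test) and at 0.35 without the 2 farthest samples.

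**Figure D4:**
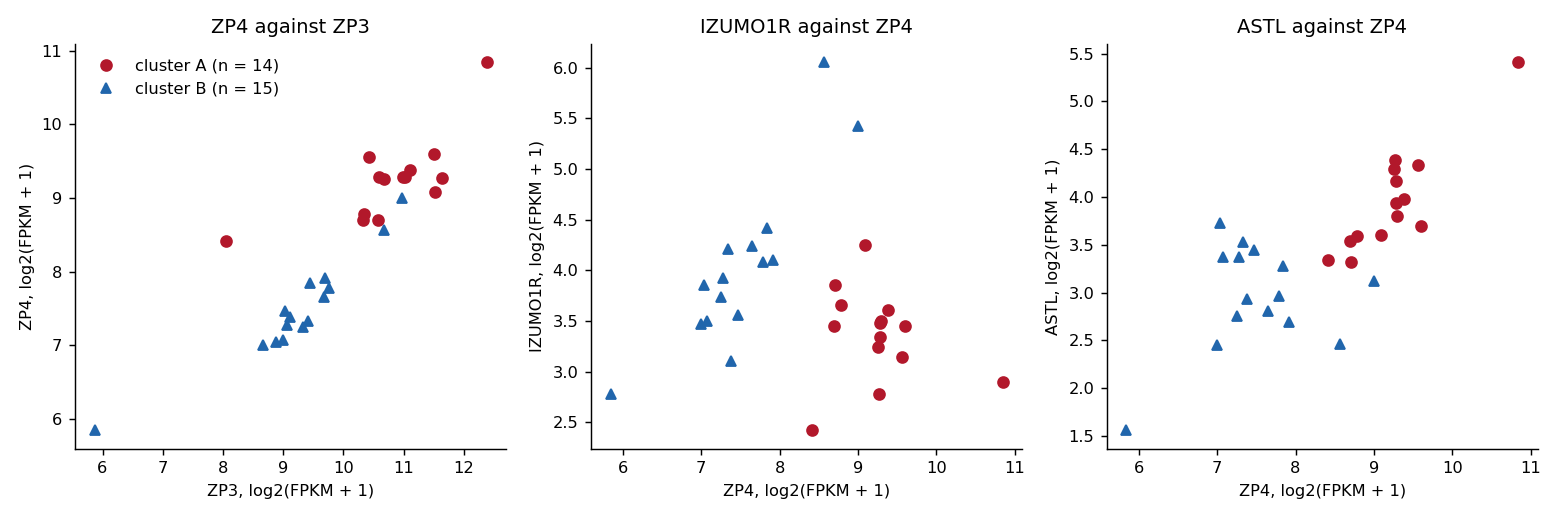
ZP4 against ZP3, IZUMO1R against ZP4 and ASTL against ZP4, each on the scale log2(FPKM + 1); points are samples, circles those of cluster A (n = 14) and triangles those of cluster B (n = 15). In cluster B, IZUMO1R rises with ZP4. In cluster A, ASTL does by r (0.89), while its rho of 0.71 did not pass (adjusted p = 0.114 in the permutation test).

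The replicate numbers of the titles, whose meaning the labels do not give, accompanied the levels across the groups, as they did the clusters over the other genes. ZP3 had 1969.7 ± 1258 FPKM (SD, n = 12) in the samples numbered 1 or 5 and 657 ± 387 FPKM (SD, n = 11) in those numbered 2 or 3. For ZP2 these were 296 ± 158 and 185 ± 54.9 FPKM, and for CD81 1.16 ± 0.647 and 0.473 ± 0.336 FPKM. CD9, mostly near 0, had 0.0463 ± 0.0596 and 0.179 ± 0.518 FPKM. ZP4 had 654 ± 392 FPKM (SD, n = 12) in the samples numbered 1 or 5 and 181 ± 80.5 FPKM (SD, n = 11) in those numbered 2 or 3, with ranges of 340.3 to 1835 and 56.4 to 377 FPKM that overlapped only through LLO replicate 5 and LMO replicate 2. ASTL had 16.04 ± 9.08 FPKM (SD, n = 12) in the samples numbered 1 or 5 and 6.66 ± 2.48 FPKM (SD, n = 11) in those numbered 2 or 3, while IZUMO1R had 11.7 ± 9.83 FPKM (SD, n = 12) in the samples numbered 1 or 5 and 17.3 ± 16.5 FPKM (SD, n = 11) in those numbered 2 or 3. The IZUMO1R means held LSO replicate 1, at 41.8 FPKM, and LMO replicate 2, at 65.4 FPKM, respectively. Its medians were 9.55 and 12.3 FPKM. Every group held samples of both kinds, so the spread within each group contains this difference. Differences between the populations may hold part of it too, which was not tested. The samples numbered 4 differed by population, without overlap, for ZP2, ZP3 and ZP4. In number 4, ZP4 was 160.5, 131 and 240.4 FPKM in HLO, HMO and HSO, and 542, 624 and 776 in LLO, LMO and LSO. ZP3 was 679, 468 and 825 FPKM against 2945, 2085 and 2917, and ZP2 was 153, 122 and 261 FPKM against 315, 307 and 348. For ASTL they overlapped, at 5.45 to 12.3 against 11.2 to 13.0 FPKM. The part of number 4 in the fertility comparisons was not tested.

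**Figure D5:**
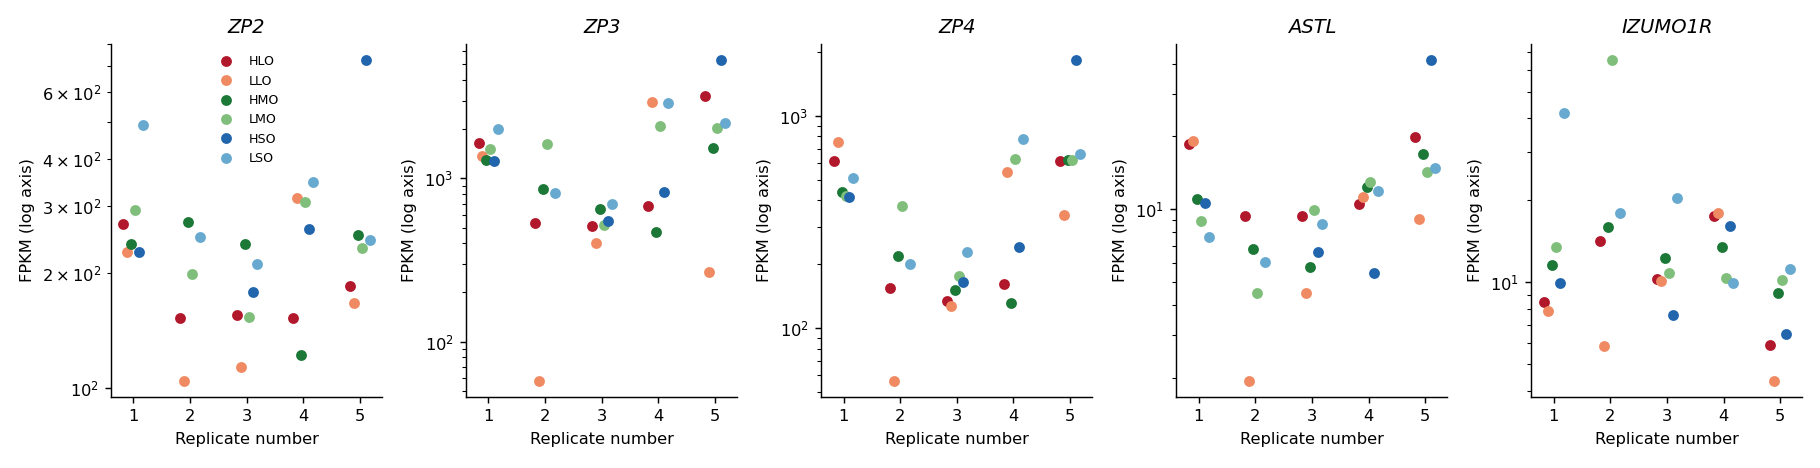
FPKM on a log axis of ZP2, ZP3, ZP4, ASTL and IZUMO1R against the replicate number of the sample titles; points are samples, coloured by group. ZP4 is higher in samples numbered 1 and 5 than in those numbered 3 in every group that has both.

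The partners of these genes were read from 4 lists. Of 25 genes of the zona and of cortical granule release, 23 had a row and 14 exceeded 0.5 FPKM in at least 4 samples; the zona genes led the list. Below them, RAB27A, a small GTPase of granule transport, had 17.4 ± 12.02 FPKM, VAMP3, a vesicle SNARE, 12.2 ± 9.002 FPKM, and NSF, the ATPase that recycles SNAREs, 7.87 ± 4.53 FPKM (SD, n = 29 for each). Of 24 egg membrane genes, 23 had a row and 13 rows passed. EZR, the membrane linker ezrin, led with 206 ± 147 FPKM, followed by CD63, a tetraspanin of internal vesicles, with 132 ± 55.5 FPKM in 1 of the 2 rows that carry its symbol, and by FOLR1, a folate receptor and relative of JUNO, with 23.3 ± 19.001 FPKM. CD63 thus stood far above CD81 and CD9, while the tetraspanins CD82, CD53, CD151 (in 2 rows) and TSPAN4 and the CD9 partner IGSF8 had means of no more than 0.0299 FPKM. Of 13 genes of zona gene transcription, 12 had a row and 9 passed. LHX8, an oocyte homeobox factor, had 33.7 ± 12.2 FPKM, ID3, an inhibitor of basic helix-loop-helix factors, 24.5 ± 14.02 FPKM, and FIGLA 9.55 ± 8.83 FPKM, with 47.1 FPKM in its highest sample, LSO replicate 1. Of 22 genes of the sperm side, 19 had a row and 3 passed. EQTN, an acrosomal membrane protein gene, had 3.38 ± 2.36 FPKM, ZPBP2, a zona binding protein gene, 1.76 ± 1.51 FPKM and SPACA1 0.231 ± 0.256 FPKM, while IZUMO1, the partner of JUNO, reached 0.0598 FPKM at most.

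In the fertility comparisons no gene of the 4 lists had an adjusted p under 0.05 in limma's moderated tests. By an unadjusted p under 0.05 with a log2 difference beyond 1, which 2.29% of all genes met in large, 3.4% in medium and 1.7% in small follicles, 1 gene was called, FOLR1 in small follicles. Its FPKM were 72.5, 21.001, 25.7 and 81.3 in HSO and 1.21, 11.5, 7.89, 25.8 and 27.4 in LSO, with HSO higher in the mean and the groups overlapping. HSO minus LSO was 1.94 (95% interval 0.29 to 3.58, adjusted p = 0.88) with an unadjusted p of 0.0251 by limma, and the unadjusted p was 0.0703 without HSO replicate 1 and also without HSO replicate 5. Of 12 egg membrane genes tested there, FOLR1 was the only one with an unadjusted p under 0.05, and their median difference was -0.19. Over all stages, 3 of 13 egg membrane genes had an unadjusted p under 0.05, against 9.99% of all genes. They are named after their values were seen: the integrin ITGB1, at -0.65 for high minus low fertility, and the ezrin relatives MSN, at -0.52, and RDX, at -0.51, with adjusted p of 0.446, 0.476 and 0.446 by limma. The median difference of the 13 was -0.19, beside -0.039 over all genes tested. Of the other lists, 1 of 9 genes of zona gene transcription had an unadjusted p under 0.05 across stages, TAF4B at -0.37 (adjusted p = 0.423 by limma), and 0 of the 14 zona and cortical granule genes did. In large follicles, against 4.14% of all genes, 1 of 8 genes of zona gene transcription had an unadjusted p under 0.05, the oocyte factor SOHLH1 at 0.69, and 1 of 11 egg membrane genes, the integrin ITGA9 at -0.78, both with an adjusted p of 0.828 by limma. These 3 were also named after their values were seen.

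The genes whose levels followed each member most closely over the 29 samples were ranked by Spearman's rho among 8233 genes with a symbol of their own, as a description, since samples share the clusters above. For ZP2 they were DDX4 (0.90), the germ cell RNA helicase, TMEM168 (0.88) and CUL3 (0.87). For ZP3 they were TUBA1B (0.94), AKR1A1 (0.93) and PRDX2 (0.93), with ZP4 in place 20. For ZP4, RFC4 (0.94) and FARSB (0.94) led, with ZP3 in place 47 and ZP2 in place 1646. The median rho over all genes was 0.39 with ZP3 and 0.44 with ZP4, so high values with these genes were common. For ASTL they were LOC102179170 (0.87), LOC108638411 (0.87) and SLC38A9 (0.86). For IZUMO1R they were CST3 (0.89), GPR179 (0.89) and NUDT16L1 (0.89), where the median over all genes was -0.12. For CD81 they were NECAP2 (0.72), KCTD14 (0.71) and BORCS8 (0.68). For CD9, with 9 samples at 0, they were DYDC2 (0.65), DBN1 (0.63) and CA6 (0.61) among 8234 genes.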

How the data were processed

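RNA of 29 goat oocyte samples was enriched with oligo-dT beads, per the study's methods, and sequenced. Reads that aligned uniquely with few mismatches were retained by the authors, and picard was used against duplicates. The deposited values are FPKM per gene from Cufflinks with the Ensembl annotation, in 1 table. The aligner and the genome build are not given in the sources used here. Removing duplicates can lower abundant genes such as ZP3. Of the columns of values, 1 matched no sample in use and was left out. Gene symbols came from the table. No sequence or coordinate is given, since the build is not named. A symbol is held by more than 1 row for 3738 of 21343 genes; CD63, CD151, ID2 and TCF4 are uncertain for this reason. No 2 samples held identical values.

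Differences on the log2(FPKM + 1) scale, which understates changes of low genes, were tested in limma (moderated statistics, trended prior) over all genes that exceeded 0.5 FPKM in 4 or more of the compared samples, with Benjamini-Hochberg adjustment over all of them. Ratios were compared by exact permutation tests and correlations by 100000 permutations. Scripts were tested on simulated data. Alternatives were a pseudocount of 0.1, no filter, median-of-ratios factors, array weights, a replicate block, 1 fit over all samples, exact tests, and each sample left out; the libraries that stood apart and the clusters were alternatives chosen after seeing the data. The members, gene lists and tests were chosen with earlier results of these data known. Named are the 7 genes, list genes past a threshold, the 3 highest genes of each list and the 3 genes most like each member, except for items that are not reported here. P-values measure the spread between these samples, which may be technical. Python 3.11.15 with numpy, pandas, scipy and scikit-learn, R 4.3.3 with limma 3.58.1 and matplotlib were used.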

Additional observations from a re-analysis of the deposited data

Results flagged for a closer look

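Of 60 groups of 4 or 5 samples examined, over the 7 genes and the 3 ratios, 9 held a sample whose gap to its nearest neighbour was past Dixon's critical value. Chance gives about 1 in 20 for independent, normally distributed values. That rate cannot be set against these 9, since genes were examined as unlogged FPKM, which are skewed, and several flags share a library. Those of ZP2, ZP3, ZP4 and ASTL in HSO came from 1 library, HSO replicate 5, with 726 FPKM of ZP2 (next 261), 5320 of ZP3 (next 1270.0), 1840 of ZP4 (next 414) and 41.5 of ASTL (next 10.6). In the same library IZUMO1R was at 6.45 FPKM, the lowest of HSO. IZUMO1R in LMO replicate 2 was 65.4 FPKM, with the next LMO sample at 13.5; this library also had the lowest FPKM sum of the series. ZP2 in HLO replicate 1 was 270.0 FPKM, with the next at 185, and ZP2 in HMO replicate 4 was 122 FPKM, below the next at 238. CD9 was 0.0987 FPKM in LLO replicate 4 and 0.0895 in LMO replicate 5, both under 0.5 FPKM and above the other samples of their groups.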

How the results depend on the processing

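The count of tested genes among the members with an adjusted p under 0.05 in limma was 0 in each fertility comparison, between stages and for the interaction, and it was 0 under every alternative that was run except array weights in HMO versus LMO, with 2 (ZP3 and ZP4, both lower in HMO). The count at an unadjusted p under 0.05 was 0 in the fertility comparisons. It was 1 with median-of-ratios factors in HLO versus LLO and over all stages, 2 with array weights in HMO versus LMO and over all stages, and 1 with no filter in HSO versus LSO, which was CD9, tested only without the filter. Between stages it was 1, and 0 without the 3 libraries that stood apart. With 1 sample left out at a time, it ran from 0 to 1 in HLO versus LLO, in HMO versus LMO, in HSO versus LSO and between stages. The pairs of genes correlated at an adjusted p under 0.05 numbered 6 over all samples, 4 with median-of-ratios factors and 1 within cluster A, with and without these factors. Over all samples with these factors, r of ZP2 and ZP4 was 0.40 and rho 0.087, where they had been 0.79 and 0.71. By rho 3 pairs passed there, among them ZP4 and IZUMO1R at -0.53 (permutation test, adjusted p = 0.0302), opposite in sign to cluster B.

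No difference that changed its sign had been called. With array weights the differences that turned were -0.12 for ZP2 in HLO versus LLO, -0.84 for ZP4 in HLO versus LLO, -0.32 for ASTL in HMO versus LMO, 0.15 for IZUMO1R in HMO versus LMO, -0.071 for ZP2 in HSO versus LSO, -0.16 for ZP4 in HSO versus LSO, -0.22 for CD81 in all stages, -0.78 for ZP3 in all stages, -0.27 for ASTL in all stages and 0.078 for IZUMO1R in all stages. With median-of-ratios factors they were 0.019 for ZP2 in HMO versus LMO and 0.10 for ZP2 in all stages. Without the libraries that stood apart they were -0.17 for ZP2 in HLO versus LLO, -0.25 for ZP3 in HLO versus LLO, -0.50 for ZP4 in HLO versus LLO, -0.092 for IZUMO1R in HLO versus LLO, -0.19 for ASTL in HMO versus LMO, 0.14 for IZUMO1R in HMO versus LMO, -0.35 for ZP3 in all stages, 0.072 for the log2 ratio of ZP2 to ZP3 in HLO versus LLO and -0.035 for the log2 ratio of ZP4 to ZP3 in HMO versus LMO; the choice of these libraries was made after seeing the data. With 1 sample left out at a time, the differences that changed their sign ran from -0.11 to 0.29 for ZP2 in HLO versus LLO, -0.47 to 0.46 for ZP4 in HLO versus LLO, -0.37 to 0.0091 for CD81 in HMO versus LMO, -0.23 to 0.12 for ZP2 in HMO versus LMO, -0.19 to 0.22 for ASTL in HMO versus LMO, -0.51 to 0.14 for IZUMO1R in HMO versus LMO, -0.12 to 0.18 for CD81 in HSO versus LSO, -0.42 to 0.25 for ZP2 in HSO versus LSO. The others ran from -0.84 to 0.25 for ZP3 in HSO versus LSO, -0.32 to 0.58 for ASTL in HSO versus LSO, -0.70 to 0.46 for ZP4 in HSO versus LSO, -0.12 to 0.066 for ZP2 in all stages, -0.20 to 0.25 for ZP3 in all stages, -0.067 to 0.56 for the log2 ratio of CD81 to CD9 in HLO versus LLO, -0.068 to 0.13 for the log2 ratio of ZP4 to ZP3 in HMO versus LMO, -0.024 to 0.42 for the log2 ratio of ZP2 to ZP3 in HSO versus LSO and -0.037 to 0.26 for the log2 ratio of CD81 to CD9 in HSO versus LSO. The cause was not tested.

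The groups share replicate numbers, but of 14 pairs of samples with the same number 10 had a correlation over 0.1 of their deviations from the group means (range -0.48 to 0.71), and 15 of 28 samples correlated best with their own number, so the numbers were not taken to pair the samples, which would have needed a correlation over 0.1 in every pair, although most pairs met it. The pairs below 0.1 were those numbered 4, at -0.48 to -0.048, and number 1 of HSO and LSO, at -0.0014. All other pairs were at 0.20 or more. With the number as a replicate block, limma called 0 of the 6 genes in each comparison; over all genes the calls at an adjusted p under 0.05 were 1 in large, 127 in medium and 0 in small follicles, where the fit without it gave 0, 6 and 1. For the log2 ratio of CD81 to CD9 in HMO versus LMO, the paired difference was -0.25, lower in HMO in 5 of 5 pairs (exact paired permutation p = 0.0625, the smallest that 5 pairs allow, adjusted p = 0.562). Under the block the differences that turned were -0.051 for CD81 in HSO versus LSO, -0.048 for ZP2 in HSO versus LSO and -0.25 for ZP4 in HSO versus LSO. FPKM hold no depth, so the precision of low values such as those of CD9 and CD81 is unknown.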
